A study of Homo sapiens with 12 samples.

Results

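Interleukin 6 (IL6) family signaling was examined through 10 genes of the 58174 in each table of mRNA levels. These were the ligand genes IL6, IL11, LIF and CLCF1, the receptor genes IL6R, IL6ST, LIFR and OSMR, the transcription factor gene STAT3 and its feedback inhibitor SOCS3. The genes were taken by symbol and not by a rule on measured values, but earlier results of these data were known when they were chosen. Each symbol matched 1 Ensembl identifier. mRNA sequencing compared control cells with aggregation cells in U87 and U118, established human glioblastoma (GBM) cell lines. Control cells carry the label sensitive. Aggregation cells carry the label resistant. The design text places their formation after continuous exposure to temozolomide (TMZ, a DNA-alkylating chemotherapy drug) at 50 μM, and the study describes aggregations that appeared after the drug period had ended. Each of the 4 groups had 3 libraries, and no group carries an engineered allele by its label. Each line is a single established line, and the study describes aggregations as arising from few surviving cells. The study sorted CD133-CD15- cells before treatment, and whether the sequenced control cells were sorted in this way is not given in the sources used here. Nothing states that the libraries of a group came from separate cultures, so the p-values below measure the spread between libraries, which may be technical.

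Ligands of this family bind a receptor subunit of their own, such as IL6R for IL6, and signal through IL6ST, the transmembrane subunit that most of the family shares. LIF signals through LIFR paired with IL6ST, and OSMR pairs with IL6ST for the ligand oncostatin M. Receptor-bound Janus kinases then phosphorylate STAT3, which enters the nucleus and induces its targets, among them SOCS3, a protein that binds IL6ST and shuts the signal down. In glioblastoma, IL6 and LIF are known as secreted factors of mesenchymal tumors and of the senescence-associated secretory phenotype.

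Promoter sequence of IL6 and IL11 is shown because the changes of these ligands differed between the lines. The sequences come from RefSeq (GRCh38.p14) and run from upstream toward the start of transcription, 5′ to 3′ on the strand of the gene. The IL6 stretch lies at chr7:22726950-22727146 on the plus strand and ends at the last base before an annotated exon, and its capitals mark a match to the NF-kappa B consensus. The IL11 stretch lies at chr19:55370464-55370713 on the minus strand, and its capitals mark a match to the AP-1 motif TGANTCA.
IL6: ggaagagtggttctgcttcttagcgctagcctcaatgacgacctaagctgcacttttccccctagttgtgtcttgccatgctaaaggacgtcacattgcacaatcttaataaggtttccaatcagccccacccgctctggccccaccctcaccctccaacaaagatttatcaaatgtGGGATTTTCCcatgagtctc
IL11: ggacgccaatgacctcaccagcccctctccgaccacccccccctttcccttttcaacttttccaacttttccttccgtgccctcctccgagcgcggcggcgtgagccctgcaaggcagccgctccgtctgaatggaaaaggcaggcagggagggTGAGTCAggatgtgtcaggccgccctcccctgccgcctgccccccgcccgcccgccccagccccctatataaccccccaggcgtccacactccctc

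Of the 10 genes, 8 had a window in the RefSeq promoter table, and LIF and CLCF1 had none. In the 250 bases before the start, on both strands, the NF-kappa B consensus was found in IL6 and IL6ST and in 9.96% of all 35116 windows. The AP-1 motif was found in IL11 and in 6.57% of all windows. The STAT motif TTCNNNGAA was found in windows of LIFR, which has several starts, and in 6.57% of all windows. The SOCS3 windows, at chr17:78360926-78361175 and chr17:78359668-78359917, held none of these motifs. They do not hold the 250 bases before the annotated gene start at chr17:78360077, so that stretch of SOCS3 was not searched. The windows of IL6 and LIFR also lie away from the annotated gene starts, at chr7:22725884 and chr5:38608354. The bases before those starts were not searched either. Windows of IL6R, OSMR, IL6ST and STAT3 hold only part of the 250 bases before theirs. The hypoxia response motif ACGTG, present in 18.51% of all windows, was found among these genes in a window of LIFR. A match is a string of letters and was not read as a bound site.

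The level of each gene is given as TPM, the share of transcripts after division by transcript length. Depth is unknown, because TPM holds no count of reads. In U87, 13353 to 14070 genes reached 1 TPM, and in U118 13270 to 15290. Single U118 libraries stood apart: aggregation library 1 held 15193 such genes and 13.2% mitochondrial transcripts, against 13270 and 13545 genes and 29.9% and 26.1% in its partners. U118 control library 3 held 19.7% mitochondrial transcripts, against 7.42% and 8.55%. The share of mitochondrial transcripts ran from 12.9% to 16.9% for U87 control, from 22.2% to 23.7% for U87 aggregation, from 7.42% to 19.7% for U118 control and from 13.2% to 29.9% for U118 aggregation. Over all genes tested, the log2 fold change of aggregation against control had a median of -0.25 in U87 and -0.52 in U118, and became 0.00 and -0.02 after scaling each library by the median ratio of its genes. Changes of the 10 genes are therefore also given on the median-ratio scale where a call depended on it, and the pathway lists by their counts on that scale. U118 aggregation libraries ranked genes more like the U87 libraries (Spearman's rho 0.902 to 0.918 over all pairs) than like the U118 control libraries (0.821 to 0.845). Of 79 genes at 10 TPM or more in every U118 control library and under 0.1 TPM in every U118 aggregation library, 59 were also under 0.1 TPM in every U87 library. All U118 results rest on these libraries, and a change under TMZ cannot be told apart from another origin of this difference. The levels of glioma markers are given for the labelled cell type and are not a test of it. VIM measured 4425 to 7149 TPM, CD44 311 to 868 TPM and NES 5.76 to 24.1 TPM. GFAP, S100B and SOX2 stayed under 1 TPM in all 12 libraries. OLIG2 measured 1.45 to 4.45 TPM over the U87 libraries. In U118 it was at most 0.052 TPM in control and 0.57 to 1.05 TPM in aggregation libraries.

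IL6 was higher in aggregation cells than in control cells of both lines, at a low level in U87 and a higher one in U118. In U87 it measured 0.506, 0.382 and 0.531 TPM in control libraries and 1.64, 0.894 and 1.64 TPM in aggregation libraries. In U118 it measured 1.41, 1.23 and 1.55 TPM in control libraries and 6.44, 7.83 and 9.54 TPM in aggregation libraries. The groups did not overlap in either line. IL6 (chr7:22725884-22732002 in GRCh38, plus strand, protein-coding) encodes the acute-phase cytokine that names the family. Fold changes were tested with limma on log2(TPM + 1), and a call needed both a Benjamini-Hochberg adjusted p below 0.05 and a log2 fold change of 1 or more in either direction. In U118 the log2 fold change was 1.89 (SE 0.23, limma adjusted p = 0.000181), a 5.7-fold ratio of mean TPM. In U87 IL6 reached 1 TPM in only 2 of 6 libraries and was not tested under the filter of 1 TPM in 3 libraries. Its ratio of means there was 2.95, with a log2 difference of 0.68 (limma adjusted p = 0.0523 with no filter on low values). On the median-ratio scale the U87 difference was 0.80 (limma adjusted p = 0.00981). IL6 passed the filter on that scale only through the U87 aggregation libraries, so the direction of this test was set by the filter. The exons of IL6 share 428 bases with the antisense gene AC073072.1 and 46 bases with STEAP1B on the opposite strand, and whether counting used the strand is not given in the sources used here. AC073072.1 averaged 0.127 TPM in U118 control and 1.70 TPM in U118 aggregation libraries, and STEAP1B 0.840 and 24.0 TPM. Both of these neighbors were highest in U118 aggregation library 1, at 2.58 and 36.3 TPM, the library in which IL6 was lowest of the 3. Reads of IL6 and of these genes in the shared bases cannot be told apart.

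IL11 moved in opposite directions in the lines. It measured 18.4, 15.9 and 16.9 TPM in U87 control and 12.4, 10.5 and 10.5 TPM in U87 aggregation libraries. In U118 it measured 4.83, 5.06 and 3.86 TPM in control and 13.7, 12.2 and 12.4 TPM in aggregation libraries. Every U87 aggregation library was below every U87 control library, and every U118 aggregation library above every U118 control library. IL11 (chr19:55364389-55370463, minus strand, protein-coding) encodes a cytokine that acts through IL11RA and IL6ST and is known from bone and fibrotic tissue. The log2 fold change was 1.31 in U118 (SE 0.23, limma adjusted p = 0.00143), which was called. In U87 it was -0.58 (SE 0.13, limma adjusted p = 0.0114), under the fold threshold, and -0.32 on the median-ratio scale (limma adjusted p = 0.157).

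LIF rose in U118 and was higher in every aggregation library of both lines. In U87 it measured 5.80, 5.92 and 6.84 TPM in control and 12.2, 12.2 and 13.2 TPM in aggregation libraries. U118 control libraries held 16.8, 16.4 and 15.8 TPM, and U118 aggregation libraries 43.5, 38.4 and 44.5 TPM. The spread within each group was small beside these gaps. LIF (chr22:30240447-30246851, minus strand, protein-coding) encodes leukemia inhibitory factor, which keeps stem cells of several kinds undifferentiated. Its log2 fold change in U118 was 1.32 (SE 0.20, limma adjusted p = 0.000693). In U87 it was 0.91 (SE 0.13, limma adjusted p = 0.0020), just under the fold threshold, and 1.16 on the median-ratio scale (limma adjusted p = 0.000691), where it was called. The antisense gene AC004264.1, which shares 175 exonic bases with LIF, stayed at or under 2.44 TPM in all 12 libraries.

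CLCF1 was the most even of the ligands. It measured 34.7, 33.6 and 36.0 TPM in U87 control and 37.1, 37.7 and 37.5 TPM in U87 aggregation libraries. In U118 the values were 37.9, 40.8 and 33.4 TPM in control and 57.5, 39.3 and 45.1 TPM in aggregation libraries. The groups were separate by a narrow margin in U87 and overlapped in U118. CLCF1 (chr11:67364168-67374177, minus strand, protein-coding) encodes cardiotrophin-like cytokine factor, a ligand of the ciliary neurotrophic factor receptor. The log2 fold changes were 0.10 in U87 (95% interval -0.09 to 0.30, limma adjusted p = 0.355) and 0.32 in U118 (-0.18 to 0.82, limma adjusted p = 0.249). The U118 value on the median-ratio scale was 0.87 (limma adjusted p = 0.00274), still under the fold threshold. AP003419.1, which shares 61 exonic bases on the same strand, ranged from 0.543 to 45.5 TPM and was highest in U87 control library 1.

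**Figure D1:**
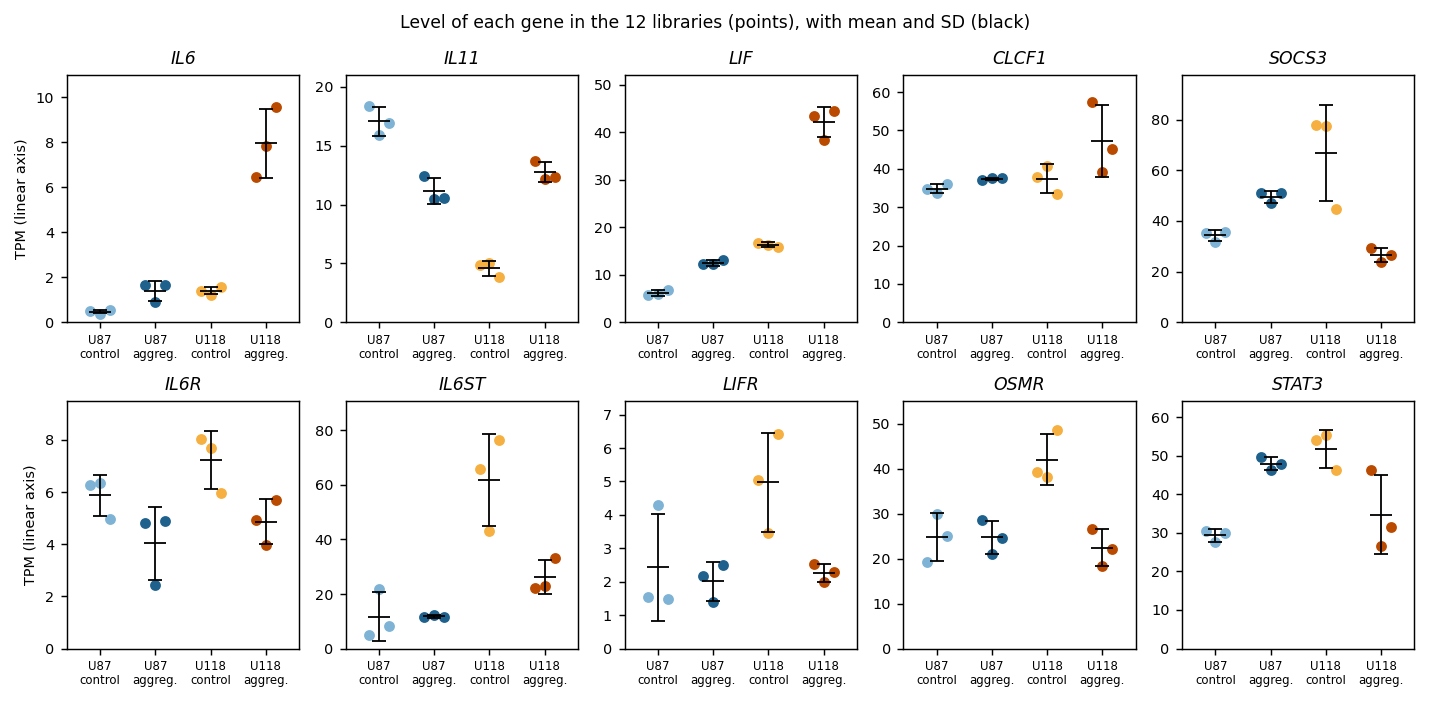
Level of each of the 10 genes in TPM (vertical axis, linear, starting at 0) in the 4 groups (horizontal axis, aggreg. for aggregation). Points are the 3 libraries of a group, black marks the mean and bars the SD. IL6 and LIF were highest in U118 aggregation libraries, whereas IL6ST, LIFR, OSMR and SOCS3 were highest on average in U118 control libraries.

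Among the receptors, IL6R, LIFR, OSMR and IL6ST were each lower in every U118 aggregation library than in every U118 control library, and only IL6ST was called. IL6ST measured 65.9, 43.2 and 76.4 TPM in U118 control and 22.1, 22.9 and 33.3 TPM in U118 aggregation libraries. Its U87 values were 4.93, 21.8 and 8.23 TPM in control and 11.7, 12.4 and 11.5 TPM in aggregation libraries. U87 control library 2 was well above the other two, and U87 groups overlapped. The log2 fold change of IL6ST (chr5:55935095-55994993, minus strand, protein-coding) in U118 was -1.20 (SE 0.28, limma adjusted p = 0.00643), and -0.65 on the median-ratio scale (limma adjusted p = 0.126), where the call was lost. In U87 it was 0.25 (95% interval -0.82 to 1.32, limma adjusted p = 0.691). Without U87 control library 2 it was 0.79 (limma adjusted p = 0.021), and without U87 control library 1 it was -0.18 (limma adjusted p = 0.722).

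OSMR and LIFR lie on chromosome 5 as well, OSMR at chr5:38845858-38945596 on the plus strand and LIFR at chr5:38474963-38608354 on the minus strand, both protein-coding. OSMR measured 39.3, 38.2 and 48.6 TPM in U118 control and 26.6, 18.5 and 22.2 TPM in U118 aggregation libraries. LIFR measured 5.05, 3.46 and 6.42 TPM in U118 control and 2.52, 1.99 and 2.30 TPM in U118 aggregation libraries. Both genes were lower by a similar amount that did not reach the fold threshold. The log2 fold change was -0.88 for OSMR (SE 0.23, limma adjusted p = 0.0106) and -0.84 for LIFR (SE 0.25, limma adjusted p = 0.0198). After median-ratio scaling they were -0.34 (limma adjusted p = 0.16) and -0.42 (limma adjusted p = 0.155), so neither passed. OSMR was called without U118 aggregation library 1 (-1.01, limma adjusted p = 0.00176), and LIFR without U118 control library 2 (-1.04, limma adjusted p = 0.0256). RICTOR, which shares 229 exonic bases with OSMR on the opposite strand, averaged 6.25 TPM in U118 control and 2.63 TPM in U118 aggregation libraries. In U87 both receptors overlapped between the groups. OSMR measured 19.3, 29.9 and 25.1 TPM in U87 control and 28.5, 21.0 and 24.7 TPM in U87 aggregation libraries. LIFR measured 1.54, 4.29 and 1.49 TPM in U87 control and 2.16, 1.38 and 2.51 TPM in U87 aggregation libraries. The intervals of the log2 fold change in U87 were -0.43 to 0.45 for OSMR and -0.88 to 0.66 for LIFR.

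IL6R, the subunit that binds IL6 (chr1:154405193-154469450, plus strand, protein-coding), was lower in every aggregation library of each line and passed in neither. It measured 6.27, 6.36 and 4.97 TPM in U87 control and 4.81, 2.42 and 4.88 TPM in U87 aggregation libraries. In U118 the values were 8.04, 7.69 and 5.97 TPM in control and 4.95, 3.97 and 5.70 TPM in aggregation libraries. The gap between the nearest libraries of the groups was narrow in both lines. The log2 fold change was -0.48 in U87 (95% interval -1.07 to 0.10, limma adjusted p = 0.162) and -0.49 in U118 (-1.03 to 0.05, limma adjusted p = 0.116). It was -0.01 in U118 on the median-ratio scale.

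STAT3 and SOCS3 were higher in aggregation cells of U87 and lower in those of U118. STAT3 measured 30.5, 27.5 and 30.0 TPM in U87 control and 49.7, 46.3 and 48.0 TPM in U87 aggregation libraries. In U118 it measured 54.1, 55.3 and 46.2 TPM in control and 46.2, 26.5 and 31.6 TPM in aggregation libraries. The U87 groups were far apart relative to their spread, whereas the U118 groups met at aggregation library 1 and control library 3, the libraries whose mitochondrial share stood apart from that of their group. STAT3 (chr17:42313324-42388568, minus strand, protein-coding) had a log2 fold change of 0.69 in U87 (SE 0.09, limma adjusted p = 0.00123), under the fold threshold. In U118 the log2 fold change was -0.60 (95% interval -1.16 to -0.04, limma adjusted p = 0.0698), -0.82 without U118 aggregation library 1 (limma adjusted p = 0.00334) and -0.05 on the median-ratio scale (limma adjusted p = 0.811). These are mRNA levels, and phosphorylation of STAT3 was not measured in them.

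SOCS3 measured 35.3, 31.8 and 35.7 TPM in U87 control and 51.0, 46.9 and 51.0 TPM in U87 aggregation libraries. U118 control libraries held 77.9, 77.7 and 44.8 TPM, and U118 aggregation libraries 29.2, 23.9 and 26.5 TPM. Control library 3 of U118, the one with the high mitochondrial share, lay below its partners and still above every U118 aggregation library. The part of that share in these values was not tested. SOCS3 (chr17:78356778-78360077, minus strand, protein-coding) fell in U118 with a log2 fold change of -1.26 (SE 0.26, limma adjusted p = 0.00374) and was called. On the median-ratio scale the value was -0.71 (limma adjusted p = 0.037), under the fold threshold. In U87 it was 0.52 (SE 0.09, limma adjusted p = 0.00442), also under that threshold.

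In counts, 0 of the 9 genes tested in U87 were called, beside 3.03% of all 13845 genes tested called higher and 7.79% called lower. By adjusted p alone, LIF, STAT3 and SOCS3 were higher in U87 (3 of 9, beside 9.43% of all genes) and IL11 was lower (1 of 9, beside 29.7%). Of the 9, 4 lay above with no overlap between the groups (13.6% of all genes) and 2 below (39.8%). In U118, IL6, IL11 and LIF were called higher (3 of 10, beside 8.64% of all 15527 genes tested) and IL6ST and SOCS3 lower (2 of 10, beside 26.6%). By adjusted p alone 3 of 10 were higher (12.2% of all genes) and 4 of 10 lower (39.1%). With no overlap, 3 lay above (15.7% of all genes) and 6 below (42.9%). The count of genes lower in U118 was thus read against a background in which lower values were common, and on the median-ratio scale 3 genes were called higher and 0 lower. The median log2 fold change of the genes was 0.10 in U87 and -0.54 in U118, beside -0.25 and -0.52 for all genes tested.

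**Figure D2:**
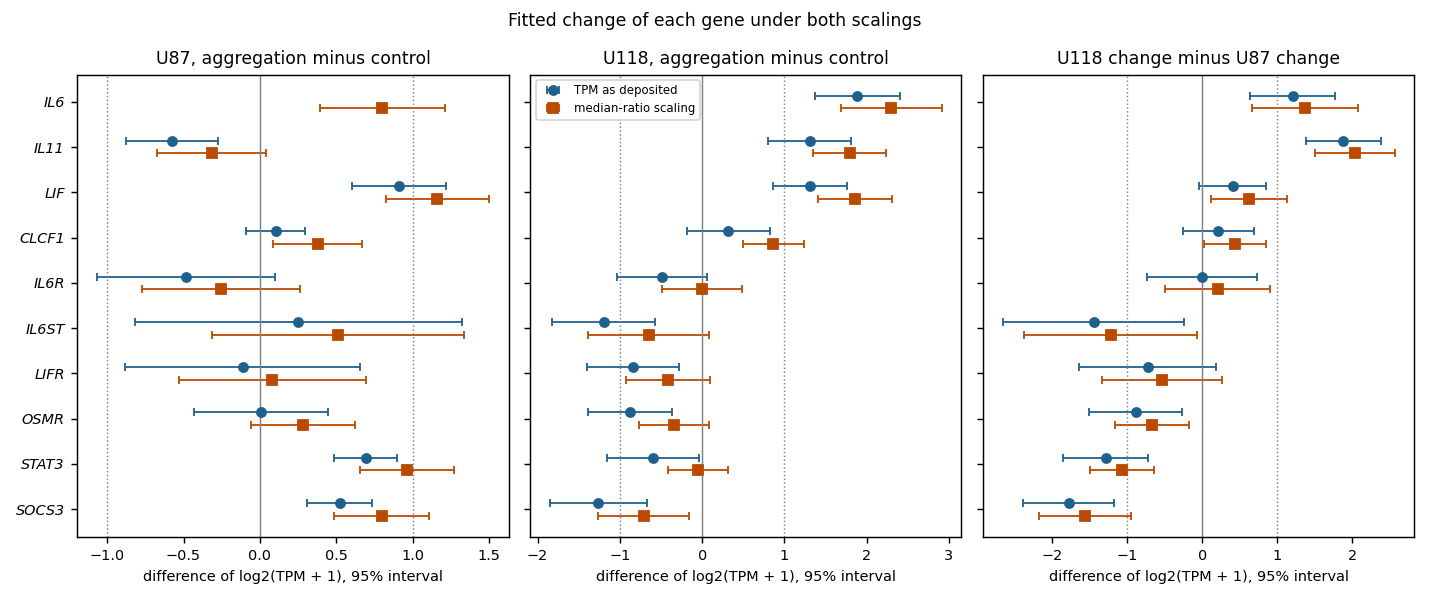
Difference of log2(TPM + 1) with its 95% interval (horizontal axis) for each gene (vertical axis) in U87, in U118 and between them, from TPM as deposited (circles) and after median-ratio scaling (squares); dotted lines mark the fold threshold. IL6, IL11 and LIF stayed above 1 in U118 under both scalings, while IL6ST and SOCS3 lay beyond -1 only as deposited, and IL6 in U87 has no circle because it was not tested there.

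The difference between the lines was tested directly, as the U118 change minus the U87 change over all 12 libraries. For IL11 it was 1.88 (SE 0.23, limma adjusted p = 3.92e-05) and for IL6 1.20 (SE 0.26, limma adjusted p = 0.00297). For SOCS3 it was -1.78 (SE 0.28, limma adjusted p = 0.000286) and for STAT3 -1.29 (SE 0.26, limma adjusted p = 0.0018). These 4 of 10 genes passed, beside 30.5% of all 16382 genes tested. All 4 also passed on the median-ratio scale, and IL6 missed with a pseudocount of 0.1 (limma adjusted p = 0.0645). The difference for LIF was 0.40 (95% interval -0.04 to 0.85, limma adjusted p = 0.14), so a different size of change in the lines was not shown. OSMR differed by -0.89 (limma adjusted p = 0.0262), under the fold threshold. IL6ST differed by -1.45 (95% interval -2.66 to -0.24, limma adjusted p = 0.0573), and by -1.99 without U87 control library 2 (limma adjusted p = 0.00144). Without that library LIFR and OSMR passed as well, and the count was 7 of 10. IL6ST also passed without U118 control library 2 (-1.69, limma adjusted p = 0.0441), and OSMR without U118 aggregation library 1 (-1.02, limma adjusted p = 0.00859).

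The order of the levels changed with the state of the cells, most of all in U118. SOCS3 led U118 control cells at a mean of 66.8 TPM, with IL6ST at 61.8, STAT3 at 51.9, OSMR at 42.0 and CLCF1 at 37.4 TPM, and each overlapped the next in its range over libraries. LIF stood sixth there at 16.3 TPM, above the genes below it in every library. In U118 aggregation cells CLCF1 (47.3 TPM) and LIF (42.1 TPM) led, with ranges that overlapped, and STAT3 (34.8 TPM), SOCS3 (26.5 TPM), IL6ST (26.1 TPM) and OSMR (22.4 TPM) followed, each overlapping the next. IL6 moved from the lowest of the 10 genes, at 1.39 TPM, to 7.94 TPM, above IL6R (4.87 TPM) and LIFR (2.27 TPM) in every library. In U87 IL6 was the lowest gene in both groups, at 0.473 TPM in control and 1.39 TPM in aggregation cells, and it overlapped LIFR (2.02 TPM) in the latter. U87 control cells were led by CLCF1 (34.8 TPM) and SOCS3 (34.3 TPM), which overlapped, and U87 aggregation cells by SOCS3 (49.6 TPM) and STAT3 (48.0 TPM), which also overlapped. LIF passed from overlap with IL6R in U87 control cells to overlap with IL6ST in U87 aggregation cells.

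Ratios of TPM within a library do not depend on the scaling between libraries, and the pairs below were chosen after the values were seen, so they are a description. IL6 over IL6R was 0.16 to 0.259 in U118 control and 1.3 to 1.97 in U118 aggregation libraries, and 0.06 to 0.107 and 0.337 to 0.369 in U87. LIF over LIFR was 2.46 to 4.72 in U118 control and 17.3 to 19.3 in U118 aggregation libraries, and 1.38 to 4.61 and 5.25 to 8.82 in U87. Both ligands thus gained on their own receptor mRNA in each line without overlap between the groups. IL6ST over IL6R overlapped in both lines, at 5.62 to 12.8 and 4.47 to 5.84 in U118 and at 0.785 to 3.43 and 2.34 to 5.1 in U87. SOCS3 over STAT3 was tightly grouped in U87, between 1.16 and 1.19 for control and between 1.01 and 1.06 for aggregation libraries. U118 control libraries gave 0.97 to 1.44 and U118 aggregation libraries 0.631 to 0.9, so SOCS3 was lower relative to STAT3 in every aggregation library of both lines. IL11 over IL6 was 31.8 to 41.6 in U87 control, 6.41 to 11.7 in U87 aggregation, 2.5 to 4.12 in U118 control and 1.3 to 2.13 in U118 aggregation libraries.

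**Figure D3:**
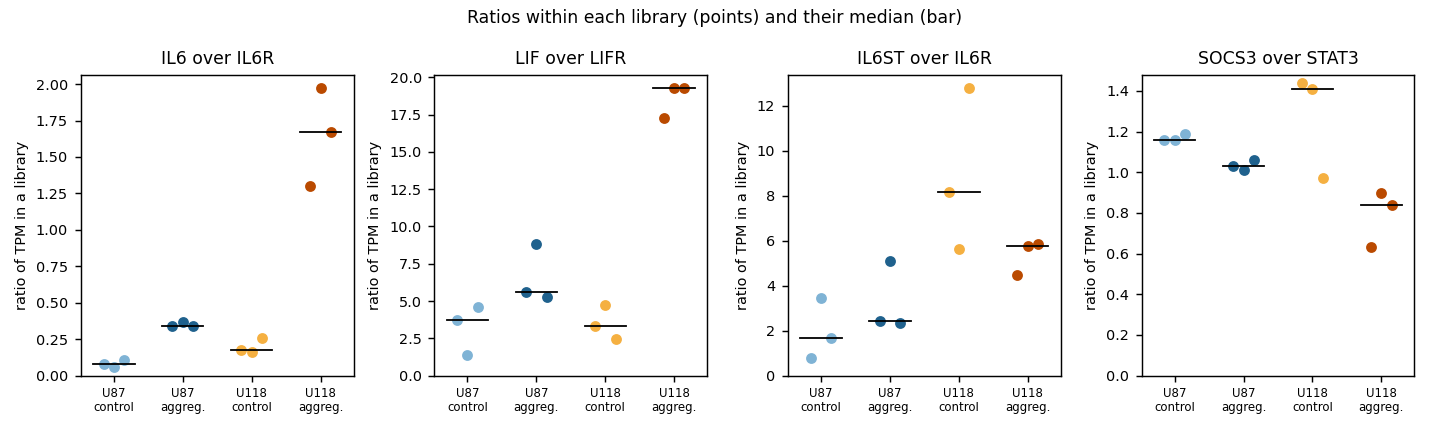
Ratio of the TPM of paired genes in each library (vertical axis, no unit, starting at 0) in the 4 groups (horizontal axis); points are libraries and bars their median. IL6 over IL6R and LIF over LIFR were higher in aggregation than in control libraries of both lines, and SOCS3 over STAT3 was lower.

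Since U118 aggregation libraries ranked close to U87, the levels were also set beside those of U87 control cells, although the tables of the lines were deposited separately. Of the 10 genes, 7 were closer to the U87 control mean in U118 aggregation than in U118 control cells, beside 66.8% of all genes tested and 76.9% of the genes called in U118. For IL11 the distance went from 1.69 to 0.39 on the log2(TPM + 1) scale, for IL6ST from 2.31 to 1.1, for OSMR from 0.74 to 0.14 and for LIFR from 0.8 to 0.07. IL6 and LIF moved away from the U87 level, from 0.7 to 2.6 and from 1.27 to 2.59, and CLCF1 from 0.1 to 0.43. IL6 and LIF in every U118 aggregation library lay above every U87 library. These distances were computed after the values were seen and carry no test.

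The wider pathway was described by 65 further genes in 6 lists. In U87, 49 were tested, of which 6 were called higher and 0 lower, with a median log2 fold change of 0.19. In U118, 51 were tested, of which 11 were called higher and 14 lower, with a median of -0.12. On the median-ratio scale 14 were called higher and 3 lower in U118, and 8 higher and 0 lower in U87. Of those tested, 3 in U87 and 5 in U118 were under 1 TPM in every library of a group. These were A2M, IL1B and LBP in U87, and EBI3, IL11RA, IL1A, IL1B and SOCS2 in U118. They could be tested only through the other group, so their direction was set by the filter. Without them the counts were 3 higher and 0 lower of 46 in U87 (median 0.16) and 7 higher and 13 lower of 46 in U118 (median -0.22). The U87 count was 2, 3 and 3 without U87 aggregation library 1, 2 and 3, and the U118 count was 16 without U118 aggregation library 2. The shares of all genes called, given above, were 3.03% and 7.79% in U87 and 8.64% and 26.6% in U118.

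Of 7 other ligand genes, U87 allowed a test of 3 and U118 of 4. In U118 CTF1, which encodes cardiotrophin, rose from 2.32, 2.45 and 2.23 TPM to 6.77, 7.87 and 6.92 TPM (log2 fold change 1.29, limma adjusted p = 0.00105). EBI3, a subunit shared by heterodimeric cytokines such as IL27, rose from 0.00, 0.0727 and 0.00 TPM to 8.55, 2.90 and 4.52 TPM (log2 fold change 2.53, limma adjusted p = 0.000184). EBI3 passed the filter in U118 only through the aggregation libraries. CTF1 and EBI3 were already at 6.81 to 8.09 TPM and 25.1 to 28.9 TPM in U87 control cells, where neither was called. The oncostatin M gene OSM stayed at or under 0.177 TPM in all 12 libraries and was listed at 0 in every U87 control library. IL27 was listed at 0 in every library of 3 groups, IL31 in 3 groups and CNTFR in U87 control.

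Of 4 other receptor genes, 2 were tested in each line, and both were called higher in U118. IL11RA, which binds IL11, rose from 0.129, 0.349 and 0.258 TPM to 7.34, 4.75 and 5.13 TPM in U118 (log2 fold change 2.42, limma adjusted p = 2.84e-05). IL31RA, the partner of OSMR for IL31, rose from 3.89, 4.06 and 3.81 TPM to 25.5, 10.5 and 11.3 TPM (log2 fold change 1.66, limma adjusted p = 0.00323). Levels of IL11 and of its own receptor gene were both higher in U118 aggregation libraries. IL11RA passed the filter in U118 only through those libraries, so the direction of its call was set by the filter. IL11RA in U87 lay between 13.9 and 15.4 TPM for control and between 19.2 and 21.4 TPM for aggregation cells and was not called.

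Among 9 kinases and transducers, 8 were tested in each line, none was called in U87 and 4 were called lower in U118. Among them, TYK2, a Janus kinase, had a log2 fold change of -1.11, the phosphatase gene PTPN11 -1.09 and the adaptor gene GAB1 -1.10. After median-ratio scaling 0 of the 8 were called. JAK1, the main kinase of the IL6 receptor complex, lay between 99.3 and 106 TPM in U118 control and between 58.4 and 88.0 TPM in U118 aggregation libraries and was not called. Of 10 inhibitors and sheddases, 8 were tested in U118, where SOCS2, PIAS1, PTPN2 and ADAM17 were called lower. SOCS2, which curbs growth hormone signaling, fell from 7.71, 10.5 and 8.06 TPM to 0.316, 0.0691 and 0.0754 TPM (log2 fold change -3.08, limma adjusted p = 6.68e-06), and its U87 values were 0 to 0.294 TPM. SOCS2 passed the filter in U118 only through the control libraries. ADAM17, a protease that sheds the IL6 receptor from the cell surface, fell from 31.2, 30.7 and 42.4 TPM to 17.2, 10.2 and 10.2 TPM (log2 fold change -1.42, limma adjusted p = 0.00236). PIAS1 and PTPN2 changed by -1.11 and -1.10. On the median-ratio scale 1 gene of this list, SOCS2, was called lower (-2.81). ADAM17 was at -0.89 there (limma adjusted p = 0.00618), under the fold threshold, and PIAS1 and PTPN2 lost their calls as well. In U87, 7 were tested and none was called, with SOCS1 alone called higher on the median-ratio scale (1.17, limma adjusted p = 0.00125).

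The list of 22 STAT3 target genes held 18 tested in U87, of which CEBPD, TIMP1, LBP and A2M were called higher and none lower, with a median of 0.39. TIMP1, an inhibitor of matrix metalloproteinases, rose from 534, 476 and 504 TPM to 1112, 1272 and 1141 TPM in U87 (log2 fold change 1.22, limma adjusted p = 0.000107). LBP, the lipopolysaccharide binding protein of the acute phase, was listed at 0 in every U87 control library and measured 10.8, 12.8 and 11.2 TPM in U87 aggregation libraries. A2M, a protease inhibitor of the acute phase, was also listed at 0 in U87 control and measured 2.01, 1.12 and 1.51 TPM in U87 aggregation libraries. LBP and A2M passed the filter only through the U87 aggregation libraries, and without them 2 of 16 were called higher, with a median of 0.38. Neither reached 0.1 TPM in any U118 library. BCL6 was also called higher in U87 on the median-ratio scale. In U118, 17 of the list were tested, with CEBPD and ICAM1 called higher and CCND1, NNMT and IL4R lower, and a median of 0.24. After median-ratio scaling 5 were called higher, namely BCL3, CEBPD, ICAM1, JUNB and TNFRSF1A, and IL4R alone lower, with a median of 0.80, so CCND1 and NNMT lost their calls. CEBPD, a transcription factor of the acute phase, was called higher in both lines, at 1.01 in U87 (limma adjusted p = 0.00224) and 1.43 in U118 (limma adjusted p = 0.00406). ICAM1, an adhesion molecule, rose by 1.44 in U118 and was listed at 0 in every U87 control library. The cytokine receptor gene IL4R changed by -2.29, NNMT, a nicotinamide methyltransferase, by -1.50 and CCND1, which encodes cyclin D, by -1.03. SERPINA3 was listed at 0 in every library of 3 groups, as were FGB and FGG. Genes of this list answer to other factors too, so their levels are not a readout of STAT3 alone.

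Regulators of IL6 expression included the NF-kappa B subunits, whose consensus lies in the IL6 promoter printed above. Of 13 genes, 11 were tested in U87, with IL1B and IL1R1 called higher and none lower, IL1B having passed the filter only through the aggregation libraries. In U118, 12 were tested, with NFKB2, RELB, IL1A, IL1B and ZC3H12A called higher and IL1R1 and ZFP36 lower, and ZFP36 lost its call after median-ratio scaling. IL1A and IL1B passed the filter in U118 only through the aggregation libraries. IL1B, the interleukin that activates NF-kappa B, was listed at 0 in every U87 control library and measured 2.96, 2.58 and 2.84 TPM in U87 aggregation libraries. In U118 it rose from 0.694, 0.329 and 0.927 TPM to 107, 73.0 and 94.6 TPM (log2 fold change 5.81, limma adjusted p = 6.79e-07). Its receptor gene IL1R1 went the opposite way in the lines, at 1.38 in U87 (limma adjusted p = 0.000876) and -1.58 in U118 (limma adjusted p = 0.00258), with a difference of -2.96 (limma adjusted p = 3.09e-05). RELB rose from 2.93, 2.31 and 1.88 TPM to 16.9, 32.3 and 34.8 TPM in U118 (log2 fold change 3.05, limma adjusted p = 6.64e-05). NFKB2 rose there by 1.82 and IL1A by 1.34. In U87, RELB changed by 0.59 and NFKB2 by -0.39, and neither was called. NFKB1 changed by -0.76 in U87 and -0.72 in U118, and RELA by 0.11 and 0.005. Neither NFKB1 nor RELA was called in either line. ZC3H12A and ZFP36, whose products degrade cytokine mRNAs, changed in U118 by 1.75 and -1.54. The tumor necrosis factor gene TNF stayed at or under 0.227 TPM in all 12 libraries.

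**Figure D4:**
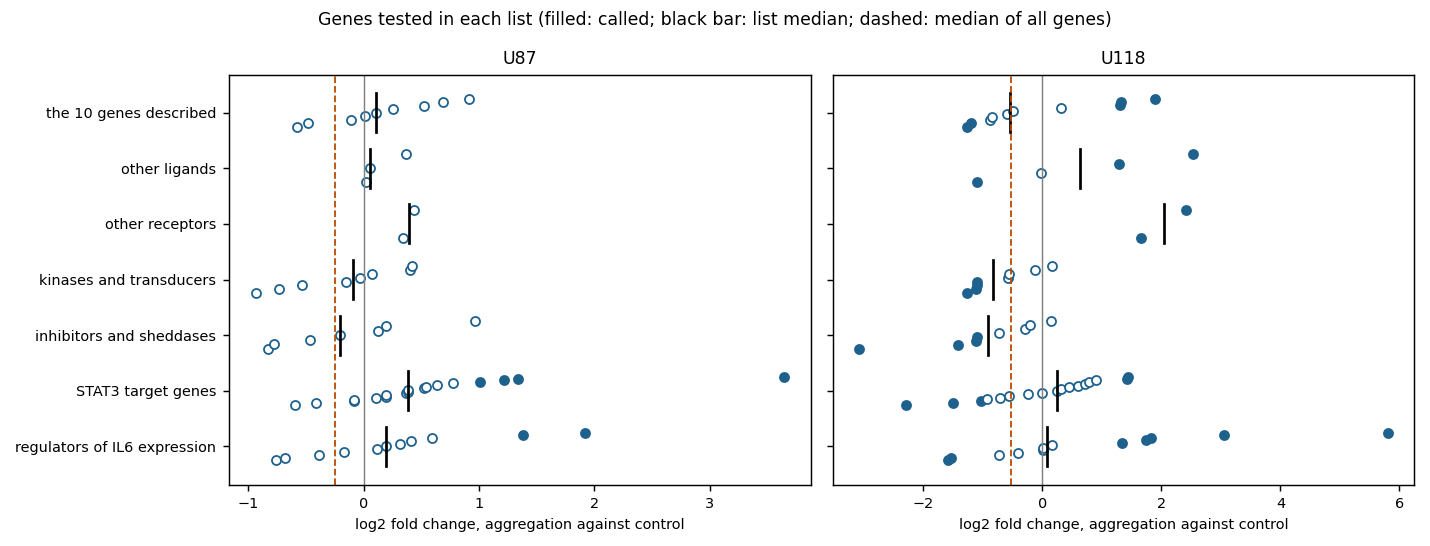
Log2 fold change, aggregation against control (horizontal axis), of each tested gene in each list (vertical axis) in U87 and U118; filled points were called, black bars are list medians and the dashed line is the median of all genes. Called points lie at or above 1 in U87 and on both sides of 0 in U118, with the kinases and the inhibitors at or below the dashed line when called.

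Markers of other cell types moved with some groups. The summed level of 6 fibroblast markers went from 704 to 959 TPM in U118 control libraries to 177 to 360 TPM in U118 aggregation libraries, with 5 of 6 called lower (4 on the median-ratio scale), and from 52.3 to 57.8 TPM up to 136 to 157 TPM in U87, with 4 called higher. These markers are also expressed by mesenchymal tumor cells, and their part in the results for IL6ST, OSMR, LIFR, STAT3 and SOCS3, which moved the same way in U118, was not tested. The summed level of 8 myeloid markers was 2.05 to 2.66 TPM in U118 control and 10.9 to 17.7 TPM in U118 aggregation libraries, and CSF1R alone accounted for 9.47 to 15.2 TPM of the latter. ITGAM measured 0 to 0.175 TPM in U118 control and 0.659 to 1.45 TPM in U118 aggregation libraries. The leukocyte markers PTPRC, AIF1, TYROBP and SPI1 were at or under 0.0785 TPM in all 12 libraries. Of 6 lymphocyte markers, CD3D was listed at 0 in every U118 control library and measured 3.13 to 4.50 TPM in U118 aggregation libraries. It was called higher there. CD2 went from 5.61 to 7.83 TPM in U87 control libraries to 0 to 0.109 TPM in U87 aggregation libraries and was called lower. CD3D passed the filter only through the U118 aggregation libraries and CD2 only through the U87 control libraries. The direction of both calls was thus set by the filter. The whole list summed to 0.135 to 0.804 TPM and 3.94 to 5.01 TPM in U118, and to 5.61 to 7.83 TPM and 0.184 to 0.705 TPM in U87. Endothelial markers summed to at most 4.66 TPM in any library. Among them, TEK averaged 0.0276 TPM in U118 control and 2.25 TPM in U118 aggregation libraries and was called higher. KDR averaged 1.23 and 0.0586 TPM in these groups and was called lower. Both passed the filter in U118 only through the group in which they were high, so their directions were set by the filter. The part of these markers in the results for the 10 genes was not tested. In such bulk libraries a smaller number of cells of a kind and less RNA per cell cannot be told apart.

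The genes whose levels followed IL6, LIF and SOCS3 most closely over the 12 libraries were listed by Pearson's r of log2(TPM + 1) among 13217 genes, as a description in which 4 groups carry most of the spread. For IL6 they were SPRR2D, IL1B, NAV2-AS6, BDKRB1 and FNDC4, with r from 0.957 to 0.968. For LIF they included ADAMTS5, CXCL8, JUNB and TBX2, with r from 0.968 to 0.983. JUNB, an AP-1 subunit, ranged over 30.3 to 32.2 TPM in U87 control, 49.2 to 50.3 TPM in U87 aggregation, 62.9 to 71.5 TPM in U118 control and 94.9 to 136 TPM in U118 aggregation libraries. CXCL8, a chemokine, averaged 0.344, 2.83, 3.01 and 13.8 TPM in the same order of groups. For SOCS3 they were ABHD16A, HS6ST1, ENSG00000272153, EVA1B and SKIC2, with r from 0.947 to 0.966. HS6ST1, a heparan sulfate sulfotransferase, averaged 9.34 and 13.4 TPM in U87 and 19.3 and 6.5 TPM in U118, the same order as SOCS3.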

How the data were processed

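The authors deposited TPM values per gene, 1 table per cell line, made from poly(A) mRNA libraries. The submitters' processing notes name FastQC 0.11.2, Trimmomatic 0.36, HISAT2 2.0, bedtools 2.26.0 and GRCh38, and the counting tool and annotation are not given in the sources used here. TPM keeps no read counts, so neither depth nor a detection limit could be given, and a change in abundant RNAs moves every other value. Groups were taken from the sample labels. Each table held 58174 Ensembl identifiers, of which 57392 had a symbol and 57836 were in GENCODE release 29, whose GRCh38 positions are printed.

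Each line was analyzed separately on the log2(TPM + 1) scale by limma 3.58.1 with a mean-variance trend, run in R 4.3.3, for genes that reached 1 TPM in 3 or more of 6 libraries. The interaction of line and phenotype was fitted over all 12 libraries. A call required a Benjamini-Hochberg adjusted p below 0.05 over all genes tested and a log2 difference of 1 or more in either direction. An exact permutation test of 3 against 3 libraries cannot reach this level, so none was used. Alternatives were another pseudocount, no filter, a floor of 10 TPM on the mean, median-ratio scaling, removal of mitochondrially encoded genes, no trend, a replicate block and leaving out each library. The fit was tested on simulated data. The 10 genes, the 6 pathway lists and the marker lists were chosen with earlier results of these data known. Genes named from the lists were those called in either line, or listed at 0 in a whole group. JAK1, TNF, NFKB1, RELA, overlapping genes and those named on the median-ratio scale were named after their values were seen. A few genes that the rule names are not reported here. Motifs were searched in RefSeq promoter windows. Python 3.11.15, pandas 2.3.3 and matplotlib 3.10.9 were used.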

Additional observations from a re-analysis of the deposited data

Results flagged for a closer look

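The change from control to aggregation cells differed between the lines for 4 of the 10 genes, by limma's interaction test over 12 libraries. The share among all 16382 genes tested was 30.5%. The difference of log2 fold changes, U118 minus U87, was 1.88 for IL11, 1.20 for IL6, -1.78 for SOCS3 and -1.29 for STAT3. IL6 was too low in U87 to be tested there under the filter. Its ratio of mean TPM was 2.95 in U87 and 5.7 in U118. With a pseudocount of 0.1 the IL6 difference was 1.07 and was not called (limma adjusted p = 0.0645). IL11 was lower in 3 of 3 U87 aggregation libraries than in any U87 control library. In U118 it was higher in 3 of 3 aggregation libraries than in any control library. SOCS3 and STAT3 did the reverse. For STAT3 the nearest U118 libraries were at 46.18 and 46.22 TPM, and its U118 change was -0.05 on the median-ratio scale (limma adjusted p = 0.811). IL6 was higher in 3 of 3 aggregation libraries of each line. Among all genes tested, 13.6% lay above and 39.8% below with no overlap in U87, and 15.7% and 42.9% in U118. Dixon's test for an outlying library was not run on groups of 3, and the effect of leaving out each library is given with the results that it changed.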

How the results depend on the processing

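Of 430 alternative values for the 10 genes, 400 kept their direction and their side of the threshold, 3 lost a call, 12 gained one and 15 changed sign. In U87 the count of genes called was 0 as reported, 1 with a pseudocount of 0.1, 1 after median-ratio scaling, 1 without mitochondrially encoded genes, each time LIF, and 4 with no fold threshold. In U118 it was 5, and 3 both with a mean of at least 10 TPM, which leaves IL6 and IL11 untested, and after median-ratio scaling, where the median of all genes moved from -0.52 to -0.02. The count whose change differed between the lines was 4, and 4 to 7 when 1 library was left out, with 7 without U87 control library 2. Pathway genes called were 6 in U87, 2 with a mean of at least 10 TPM, 23 with no fold threshold and 2 to 8 when 1 library was left out. They numbered 2 without U87 aggregation library 1, 3 without library 2 and 3 without library 3, where the filter removes genes seen in those 3 libraries alone. In U118 they were 25, 15 with a mean of at least 10 TPM and 16 to 26 when 1 library was left out, the lowest without U118 aggregation library 2. Sign changes fell on values near 0. In U87 they were IL6ST (-0.18 to 0.79 when 1 library was left out), LIFR (0.082 after median-ratio scaling, and -0.30 to 0.24 when 1 library was left out) and OSMR (-0.15 to 0.15 when 1 library was left out). For IL6R the difference between the lines was -0.01 as reported, 0.022 with a pseudocount of 0.1, 0.20 after median-ratio scaling, 0.057 without mitochondrially encoded genes and -0.26 to 0.13 when 1 library was left out.

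With a replicate block, 0 of the 10 genes were called in U87 and 5 in U118, and 5 differed between the lines, IL6ST being added at -1.45 (limma adjusted p = 0.0316). The numbers are shared names only. Same-numbered libraries correlated in their deviations at 0.01, -0.07 and -0.04 in U87 and at 0.14, 0.05 and 0.10 in U118, and in U118 each pair correlated best with its own number, a hint from the data.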
